A study of Mus musculus with 10 samples.

Results

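The TNF superfamily and the NF-κB genes were examined in the uterus of early pregnant mice by mRNA sequencing. The set was chosen by gene name, with earlier results of these data known. It held 49 of the 45706 genes listed: 15 TNF superfamily ligands, 16 TNF receptors and 18 NF-κB components and feedback genes. Uteri were collected at gestation day (GD) 3.5 from 5 control mice, *Arid1a* f/f, and from 5 *Ltf* iCre/+ *Arid1a* f/f mice, called mutants below, all of them adult females of 12 to 15 weeks mated to wildtype males. Both genotypes carried floxed *Arid1a* alleles on a mixed background of C57BL/6 and 129 strains, and the mutants also carried the iCre recombinase in 1 allele of the lactoferrin gene *Ltf*, which is active in the endometrial epithelium. Lactoferrin is also a granule protein of neutrophils. The RNA came from a piece of the whole uterus, so that a lower level may mean fewer cells of a type or less RNA per cell, which cannot be told apart here. ARID1A is a subunit of a chromatin remodelling complex, and the question asked here is how the genes of TNF signalling stood in uteri without it in the epithelium.

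TNF superfamily ligands are trimers on the cell surface or released from it, and bind receptors of the TNF receptor superfamily, some of which they share. Receptors pass the signal through TRAF proteins and the kinases RIPK1 and TAK1 to the IκB kinase complex. That complex marks the inhibitor IκBα, product of *Nfkbia*, for destruction and so frees dimers of Rel family proteins to enter the nucleus. The lymphotoxin β receptor, CD40 and the TWEAK receptor also use a slower route through the kinase NIK and the subunit RelB, which TRAF2, TRAF3 and the cIAP proteins restrain. NF-κB in turn switches on genes that stop it, among them *Nfkbia*, *Tnfaip3* and *Tnip1*. In the uterus these pathways are known for roles in inflammation, in the control of leukocytes and in tissue remodelling.

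Levels are in CPM, read counts divided by TMM-scaled library sizes, and levels of different genes are compared in CPM per kb of exon length. Genotypes were set against each other by the quasi-likelihood test of edgeR in 25146 genes, those averaging 1 count or more per uterus, which included all 49 members, and a gene was called changed at an adjusted p (Benjamini-Hochberg) under 0.05. An exact permutation test, two-sided, was added for single genes, and the smallest p it can give with 5 uteri a side is 0.00794. The libraries held 59296537 to 72702411 counts, and 3 counts stood at about 0.0432 CPM. *Arid1a* itself had a log2 fold change of -0.20 that did not pass the test (edgeR adjusted p = 0.201), with 4 of the 5 mutants below every control. *Ltf*, the gene that carries iCre in mutants, had 2.22 to 11.7 CPM in controls and 383, 23.6, 39.8, 290 and 2830 CPM in mutants 1 to 5. Its log2 fold change was 7.23 (edgeR adjusted p = 0.0092), and 5.27 without mutant replicate 5 (edgeR adjusted p = 0.00546). Mutant replicate 5 stood apart in its neutrophil marker RNA. There 7 neutrophil markers summed to 873 CPM, against 12.3 to 23.1 CPM in the other 4 mutants and 5.94 to 23.1 CPM in controls. None of the markers was at 0 in every uterus. The sum of general leukocyte markers did not set mutant replicate 5 apart, with 347 CPM there and 333 CPM in mutant replicate 4. Results that rest on this uterus are therefore given with and without it. Mutant replicate 1 also stood apart from the other mutants: it held the highest of the 10 values for 4581 of the tested genes, against 3830 for replicate 5, and its counts differed from those of mutants 2 to 4 by a chi-square of 126.8 to 194.1 per gene, against 28.66 to 73.3 among these.

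In mutant uteri, 9 of the 49 genes rose and 1 fell. The genes that rose were the ligands *Tnf*, *Ltb*, *Tnfsf4*, *Tnfsf13* and *Tnfsf14*, the receptors *Tnfrsf1b*, *Tnfrsf12a* and *Tnfrsf18*, and the TNF-induced gene *Tnfaip2*. The gene that fell was the NF-κB subunit *Rel*. The 10 calls are 20.4% of the members, while 9.70% of all tested genes were called (5.19% higher and 4.51% lower). As the set was chosen with earlier results of these data known, these shares describe it and are no test. Values of the genotypes did not overlap for 10 members, 8 higher and 2 lower, against 10.7% of all tested genes (5.53% higher, 5.16% lower), and the permutation p was under 0.05 for 20 members, against 24.3%. The median log2 fold change was 1.11 over the ligands, 0.37 over the receptors and 0.08 over the NF-κB genes, beside 0.03 over all tested genes. Without mutant replicate 5, 10 members were called (8 higher, 2 lower, with a background of 9.15%, of which 4.93% higher and 4.22% lower), and the medians were 0.98, 0.12 and 0.00. Without control replicate 2, 4 members were called, with a background of 4.79%, without mutant replicate 1 there were 8 (7 higher, 1 lower) with a background of 7.76%, and DESeq2 called 15 members with a background of 19.0%.

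**Figure D1:**
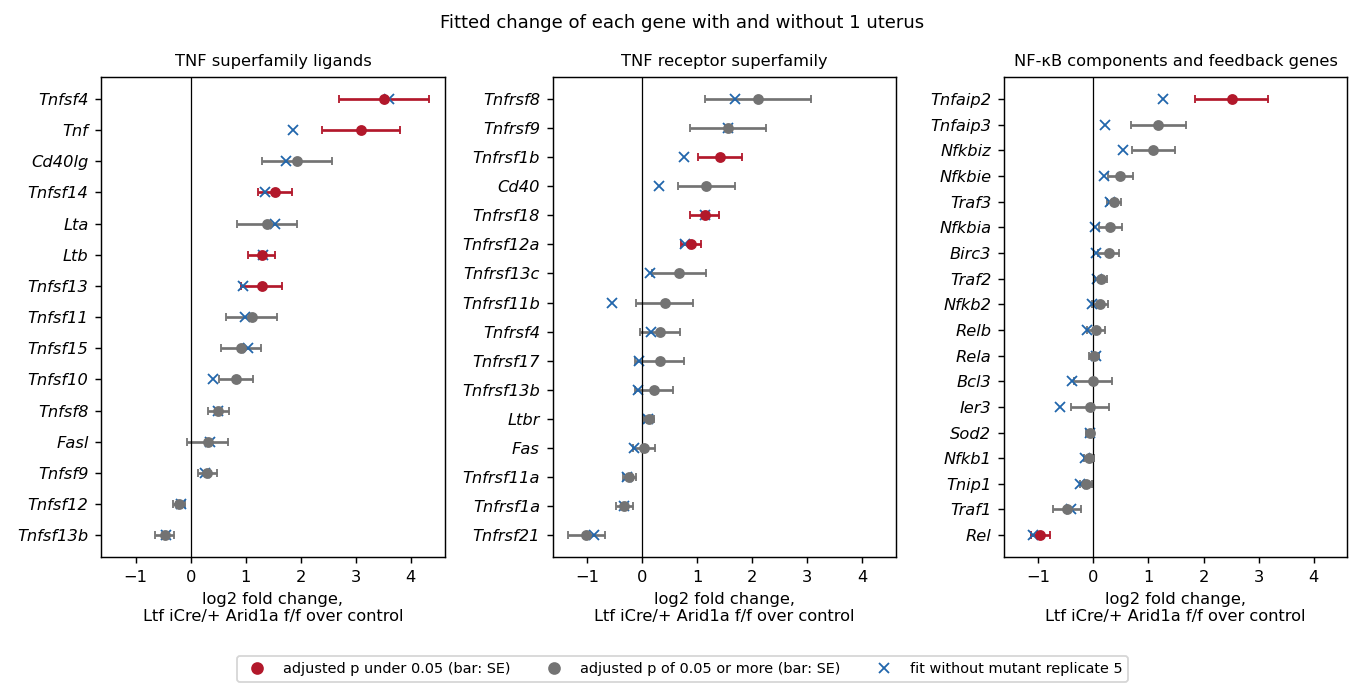
Fitted log2 fold change of mutants over controls for each of the 49 genes in 3 panels, one per class, with the standard error as a bar (5 uteri per genotype). Crosses give the value without mutant replicate 5, which lies far to the left of the main value for *Tnf*, *Tnfrsf11b*, *Tnfaip2* and *Tnfaip3* and close to it for *Ltb*, *Tnfrsf18* and *Rel*.

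The promoters of 4 members are shown because they hold the NF-κB consensus, a 10-base pattern, just before the gene. They are *Nfkbia* and *Tnip1*, 2 inhibitors of NF-κB that did not pass the test, and *Rel*, the gene that fell. The last is *Ltb*, a ligand whose call, like that of *Tnfsf14*, was kept in every fit that left out 1 uterus. The sequences are from RefSeq, GRCm38.p6, in the direction of the gene, and end before the first annotated base of the gene. For *Ltb* that base in GENCODE lies before the RefSeq start, so 68 bases were cut from the end of its stretch, and 1 base was cut for *Rel*. Capitals mark the bases that match the consensus on either strand. The *Nfkbia* stretch is chr12:55492648-55492897, minus strand, that of *Tnip1* chr11:54962941-54963190, minus strand, that of *Rel* chr11:23770971-23771219, minus strand, and that of *Ltb* chr17:35194257-35194438, plus strand.
Nfkbia: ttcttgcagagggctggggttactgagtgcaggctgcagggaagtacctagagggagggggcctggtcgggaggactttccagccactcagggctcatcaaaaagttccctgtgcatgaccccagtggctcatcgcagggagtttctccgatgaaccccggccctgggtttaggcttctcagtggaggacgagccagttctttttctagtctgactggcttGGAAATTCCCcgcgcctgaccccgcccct
Tnip1: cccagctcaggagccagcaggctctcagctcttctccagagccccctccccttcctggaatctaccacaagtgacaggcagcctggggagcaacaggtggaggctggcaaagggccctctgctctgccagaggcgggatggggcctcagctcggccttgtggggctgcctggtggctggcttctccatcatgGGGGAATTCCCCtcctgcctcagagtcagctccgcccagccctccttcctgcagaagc
Rel: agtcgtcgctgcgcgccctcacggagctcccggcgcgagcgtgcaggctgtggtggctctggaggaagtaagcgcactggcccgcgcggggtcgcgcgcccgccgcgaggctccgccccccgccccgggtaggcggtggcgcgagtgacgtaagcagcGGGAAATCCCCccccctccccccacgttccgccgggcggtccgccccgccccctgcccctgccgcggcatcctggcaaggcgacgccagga
Ltb: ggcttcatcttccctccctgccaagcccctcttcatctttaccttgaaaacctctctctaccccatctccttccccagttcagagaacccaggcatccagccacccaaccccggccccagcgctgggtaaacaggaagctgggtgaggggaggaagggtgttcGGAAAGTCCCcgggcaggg
The match ran from 29 to 20 bases before the RefSeq start in *Nfkbia*, from 58 to 47 in *Tnip1*, from 92 to 82 in *Rel* and from 87 to 78 in *Ltb*, which is 19 to 10 bases before the end of the printed stretch. In *Tnip1* and *Rel* the capitals are overlapping matches.

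RefSeq promoters, taken as the 250 bases before each start, were found for 40 of the 49 members. The consensus stood in 10 of 15 NF-κB components and feedback genes, in 2 of 14 receptors, *Tnfrsf8* and *Tnfrsf9*, and in 1 of 11 ligands, *Ltb*. Counted by promoter, 33.3% of the 45 member promoters held it, against 7.25% of 32851 promoters of the annotation. Of the 15 member promoters with the consensus, 12 were of NF-κB components and feedback genes, and *Nfkb2* entered with several. That class holds genes known to be switched on by NF-κB, so the share over all members is no test. A looser pattern, GGG and CC with any 5 bases between them on either strand, which includes the consensus, stood in 75.6% of member promoters and in 45.8% of all. Of the 5 ligands that rose, 4 had an entry, and among these only *Ltb* held the consensus in this window. A match of letters is no measure of binding.

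Among the ligands, 5 of 15 rose and none fell (33.3% called, against 9.70% of all tested genes). The set was chosen with earlier results known, so this share is a description and no test. The fitted changes were positive for 13 of the 15 and ran from -0.47 to 3.51 on the log2 scale. Most ligands were expressed at a low level: 7 had a control mean under 1 CPM and 2 a mean of at least 10 CPM. Per kb of exon, the highest in controls were *Tnfsf12*, at 9.45 ± 1.04 CPM per kb (SD, n = 5), and *Tnfsf10*, at 8.08 ± 0.861 CPM per kb (SD, n = 5), whose values overlapped. Next came *Tnfsf9* at 1.72 and *Ltb* at 1.59 CPM per kb, also overlapping, and the lowest was *Tnfsf4* at 0.0127 CPM per kb.

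*Tnf* (ENSMUSG00000024401, chr17:35199381-35202007) encodes the founding cytokine of the family. Its level was 0.629, 0.544, 0.830, 0.554 and 0.359 CPM in control replicates 1 to 5 and 1.25, 1.18, 2.7, 3.33 and 16.4 CPM in mutant replicates 1 to 5. Every mutant lay above every control, and replicate 5 was well above the other 4. This was a log2 fold change of 3.09 (SE 0.71, edgeR adjusted p = 0.0216, exact permutation p = 0.00794). Without mutant replicate 5 it was 1.86 (edgeR adjusted p = 0.0114), and the call was lost without control replicate 2, 4 or 5 (edgeR adjusted p = 0.0592, 0.0546 and 0.0546).

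The lymphotoxin genes *Ltb* and *Lta* flank *Tnf* on chromosome 17, *Ltb* at 3.06 kb and *Lta* at 1.16 kb. *Ltb* (ENSMUSG00000024399, chr17:35194439-35196320) encodes lymphotoxin β, the membrane anchor of the lymphotoxin trimer that binds the lymphotoxin β receptor. Control uteri had 2.52, 2.73, 2.04, 2.53 and 2.25 CPM of *Ltb*, and mutants 5.33, 3.19, 7.19, 8.41 and 5.43 CPM. The groups did not overlap, and replicate 5 was not the highest. Means were 2.41 ± 0.271 and 5.91 ± 1.99 CPM (SD, n = 5 each), and the log2 fold change was 1.29 (SE 0.24, edgeR adjusted p = 0.00888), and the call was kept with each of the 10 uteri left out in turn. *Lta*, which encodes the partner chain lymphotoxin α, had 0.0627 to 0.307 CPM in controls and 0.186 to 1.21 CPM in mutants (log2 fold change 1.39, edgeR adjusted p = 0.134), and its groups overlapped.

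*Tnfsf14* (ENSMUSG00000005824, chr17:57189492-57194177) encodes LIGHT, a second ligand of the lymphotoxin β receptor. Its level was 0.741, 1.12, 0.783, 0.980 and 1.11 CPM in controls and 1.62, 1.55, 3.78, 2.67 and 4.01 CPM in mutants. No mutant fell within the control range. The means of 0.945 ± 0.176 and 2.73 ± 1.16 CPM (SD, n = 5 each) gave a log2 fold change of 1.53 (SE 0.31, edgeR adjusted p = 0.0118), and this call too was kept with each uterus left out. *Tnfsf9*, 81.7 kb away, encodes the ligand of 4-1BB and had a log2 fold change of 0.30 (edgeR adjusted p = 0.286).

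*Tnfsf4* (ENSMUSG00000026700, chr1:161395409-161418410) encodes OX40 ligand, a costimulator of T cells. It was close to the limit of detection in controls, with 0, 2, 2, 0 and 4 counts, while the mutants had 9, 34, 4, 29 and 15 counts. That is 8 counts in all against 91, or 0.0233 ± 0.0242 against 0.284 ± 0.210 CPM (SD, n = 5 each). In CPM every mutant lay above every control, but control replicate 5 and mutant replicate 3 had 4 counts each (0.0574 and 0.0654 CPM). The log2 fold change of 3.51 (SE 0.82, edgeR adjusted p = 0.0228) rests on few reads, and the call was lost without control replicate 2 or 3 (edgeR adjusted p = 0.0574 and 0.0552).

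*Tnfsf13* (ENSMUSG00000089669, chr11:69682846-69685784) encodes APRIL, a survival factor of plasma cells. Controls had 1.64, 1.17, 1.52, 1.18 and 1.67 CPM, and mutants 4.28, 1.40, 2.01, 3.36 and 6.47 CPM. Mutant replicate 2 fell within the control range, and replicate 5 was the highest. The log2 fold change was 1.29 (SE 0.37, edgeR adjusted p = 0.0483). This call stood at the threshold: it was lost in 8 of the 10 fits with 1 uterus left out (each control in turn and mutant replicates 1, 4 and 5, edgeR adjusted p of up to 0.115), and without mutant replicate 5 the log2 fold change was 0.95 (edgeR adjusted p = 0.0835). *Tnfsf13* also shares exons with *Tnfsfm13*, a readthrough transcript with *Tnfsf12* on the same strand (0.842 CPM in controls, 1.32 CPM in mutants), and with an antisense gene, *Tnfsf13os* (1.32 and 2.07 CPM), and reads in exons shared on the counted strand are left out of its count.

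The abundant ligands did not pass the test. *Tnfsf12*, which encodes TWEAK, had 15.7, 15.7, 14.4, 13.8 and 11.9 CPM in controls and 13, 13.9, 12, 11.9 and 11.2 CPM in mutants (log2 fold change -0.21, edgeR adjusted p = 0.281). It ends 465 bases before the start of *Tnfsf13* on the same strand and also overlaps *Tnfsfm13*. *Tnfsf10*, which encodes the death ligand TRAIL, had 35.6, 44.3, 45.6, 46.7 and 40.6 CPM in controls and 76.0, 42.9, 42.2, 65.0 and 153 CPM in mutants. Mutants 2 and 3 were inside the control range while 1, 4 and 5 were above it (log2 fold change 0.83, SE 0.31, edgeR adjusted p = 0.111, and 0.41 without mutant replicate 5).

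Of the other ligands, *Tnfsf13b*, which encodes the B cell factor BAFF, had the lowest fold change, with 4.71 to 7.21 CPM in controls and 3.76 to 5.2 CPM in mutants (log2 fold change -0.47, edgeR adjusted p = 0.0938, DESeq2 adjusted p = 0.0148). *Cd40lg*, the CD40 ligand of activated helper T cells, had 0.042 to 0.157 CPM in controls and 0.0507 to 0.668 CPM in mutants (log2 fold change 1.93, edgeR adjusted p = 0.0795, and 0.0282 without mutant replicate 2). *Tnfsf11*, which encodes RANKL, had a log2 fold change of 1.11 (edgeR adjusted p = 0.148), *Tnfsf15*, which encodes TL1A, 0.91 (edgeR adjusted p = 0.133) and *Tnfsf8*, which encodes CD30 ligand, 0.50 (edgeR adjusted p = 0.130, DESeq2 adjusted p = 0.0348). *Fasl*, the ligand of the death receptor Fas, had 1.59 ± 0.725 CPM in controls and 1.98 ± 0.879 CPM in mutants (SD, n = 5 each, edgeR adjusted p = 0.653).

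**Figure D2:**
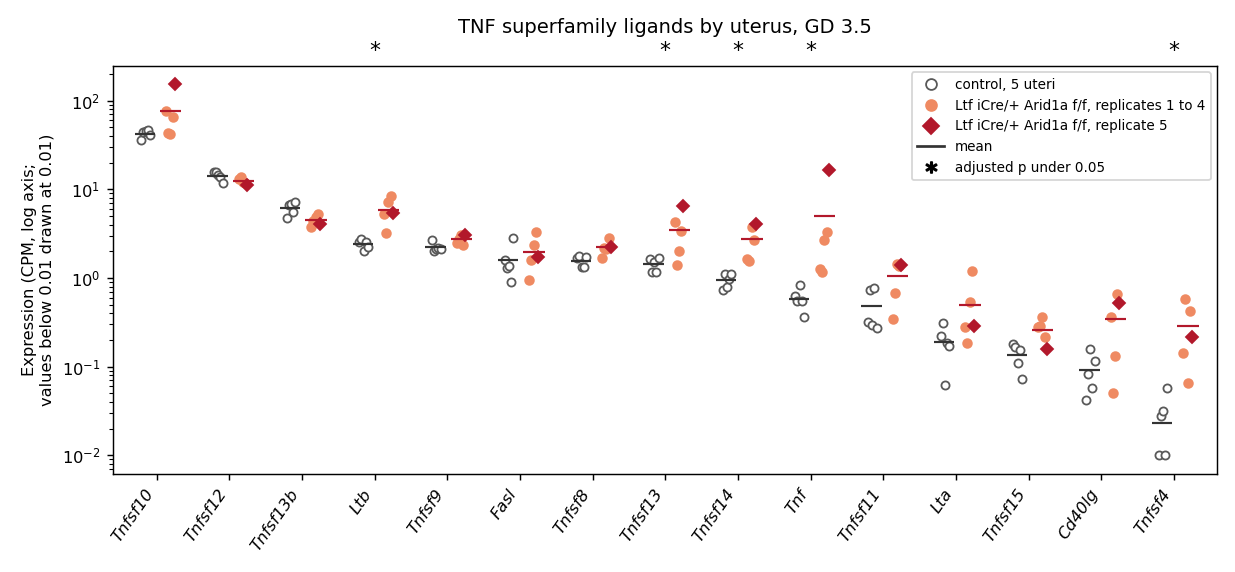
Expression of the 15 ligands in each of the 10 uteri (CPM, log axis), ordered by the control mean. Open circles are controls, filled circles mutant replicates 1 to 4, diamonds mutant replicate 5 and lines the means. *Ltb*, *Tnfsf14*, *Tnf* and *Tnfsf4* have every mutant above every control, and replicate 5 is the extreme value for *Tnf* (16.4 CPM) and *Tnfsf10* (153 CPM).

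Among the receptors, 3 of 16 rose and none fell by the test (18.8% called, against 9.70% of all tested genes). This share too is a description and no test. The most abundant per kb in controls were *Tnfrsf1a* at 50.7 ± 9.51, *Tnfrsf21* at 39.9 ± 7.70 and *Ltbr* at 27.4 ± 2.09 CPM per kb (SD, n = 5 each). The first pair overlapped in level, and *Ltbr* lay below *Tnfrsf21* in every control. The remaining 13 receptors stood at 5.05 CPM per kb or less. The fitted change was positive for 13 receptors and negative for 3, with a range of -1.01 to 2.11, and without mutant replicate 5 it was positive for 9 and negative for 7.

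*Tnfrsf1b* (ENSMUSG00000028599, chr4:145213463-145246870) encodes TNFR2, the TNF receptor typical of leukocytes and endothelium. Its level was 13.1, 13.9, 14.3, 12 and 17.0 CPM in controls and 28.4, 18, 21.7, 27.8 and 92.3 CPM in mutants. Every mutant was above every control, and replicate 5 was more than 3 times the next highest. The fitted log2 fold change was 1.42 (SE 0.40, edgeR adjusted p = 0.0445), and without mutant replicate 5 it was 0.77 (edgeR adjusted p = 0.0121). The call was lost without any single control (edgeR adjusted p = 0.0755 to 0.1) and without mutant replicate 1 or 4 (0.0551 and 0.0558). *Tnfrsf1a* (chr6:125349362-125362484), which encodes TNFR1, the broadly expressed receptor with a death domain, had 127, 159, 154, 114 and 102 CPM in controls and 128, 119, 84.8, 84.3 and 109 CPM in mutants (log2 fold change -0.32, SE 0.16, edgeR adjusted p = 0.220), and the groups overlapped.

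*Tnfrsf12a* (ENSMUSG00000023905, chr17:23675445-23677468) encodes Fn14, the receptor of TWEAK, a gene known to be induced in injured and remodelling tissue. Controls had 8.27, 5.19, 7.47, 5.54 and 7.01 CPM, and mutants 14.2, 12.1, 11.1, 8.44 and 15.9 CPM. The lowest mutant was just above the highest control. Its log2 fold change was 0.89 (SE 0.19, edgeR adjusted p = 0.0178), and without control replicate 2 it was 0.80 (edgeR adjusted p = 0.0508). The gene had 6.69 ± 1.3 CPM in controls and 12.4 ± 2.87 CPM in mutants (SD, n = 5 each), while its ligand *Tnfsf12* had a log2 fold change of -0.21.

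*Tnfrsf18* (ENSMUSG00000041954, chr4:156026164-156028895) encodes GITR, a costimulatory receptor of T cells. It had 0.867, 1.51, 0.689, 1.01 and 1.06 CPM in controls and 2.41, 1.40, 2.31, 2.99 and 2.24 CPM in mutants, with mutant replicate 2 inside the control range. The log2 fold change was 1.14 (SE 0.26, edgeR adjusted p = 0.0216), and the call was lost without control replicate 3 or 4 (edgeR adjusted p = 0.0583 and 0.0536). An antisense gene, *Gm16008*, overlaps its exons (4.75 CPM in controls and 4.31 CPM in mutants). The strand setting is not given, and if strands were not told apart, reads in the shared exons are left out of the *Tnfrsf18* count. *Tnfrsf4*, 9.55 kb away, encodes OX40 and had 0.912 ± 0.398 and 1.15 ± 0.419 CPM (SD, n = 5 each, log2 fold change 0.33, edgeR adjusted p = 0.613).

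*Tnfrsf21* (ENSMUSG00000023915, chr17:43016555-43089189), which encodes DR6, a receptor with a death domain, had the lowest log2 fold change of the receptors. Its level was 141, 162, 136, 216 and 166 CPM in controls and 29.1, 112, 97.6, 118 and 49.2 CPM in mutants. All mutants were below all controls, and replicates 1 and 5 were the lowest. The log2 fold change of -1.01 (SE 0.33) did not pass edgeR's test (edgeR adjusted p = 0.0751, DESeq2 adjusted p = 0.0174, exact permutation p = 0.00794), and without mutant replicate 1 it was -0.80 (edgeR adjusted p = 0.0626).

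*Tnfrsf9* and *Tnfrsf8*, singled out after their values were seen, each had 1 control that stood with the mutants. *Tnfrsf9* (chr4:150914562-150946102) encodes 4-1BB, a receptor of activated T cells. It had 7.29, 0.808, 0.783, 0.866 and 1.21 CPM in controls and 1.69, 6.24, 8.16, 9.96 and 6.55 CPM in mutants (log2 fold change 1.57, SE 0.69, edgeR adjusted p = 0.174). Without control replicate 1 the log2 fold change was 2.83 (edgeR adjusted p = 0.00584). *Tnfrsf8*, which encodes CD30, had 0.587, 0.0418, 0.0470, 0 and 0.0144 CPM in controls and 0.267, 0.270, 0.474, 0.799 and 1.22 CPM in mutants (log2 fold change 2.11, SE 0.96, edgeR adjusted p = 0.189, and 4.47 with an adjusted p of 0.00799 without control replicate 1). The high control was replicate 1 for both genes, which lie on the same chromosome but are not neighbours.

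The other receptors did not pass the test. *Cd40*, the receptor of CD40 ligand on B cells and macrophages, was at 1.88 to 3.60 CPM in controls, at 2.48 to 4.87 CPM in mutants 1 to 4 and at 16.0 CPM in replicate 5 (log2 fold change 1.17, edgeR adjusted p = 0.175, and 0.30 without replicate 5). *Tnfrsf11b*, which encodes the decoy receptor osteoprotegerin, went the opposite way without that uterus: it had 11.7 to 16.5 CPM in controls, 6.96 to 12.8 CPM in mutants 1 to 4 and 56.1 CPM in replicate 5, so that its log2 fold change of 0.41 (edgeR adjusted p = 0.667) became -0.55 (edgeR adjusted p = 0.0807). The B cell and plasma cell receptors *Tnfrsf13b*, *Tnfrsf13c* and *Tnfrsf17* had log2 fold changes of 0.22, 0.68 and 0.32 (edgeR adjusted p of 0.743, 0.430 and 0.717), and each was highest in mutant replicate 5 and lowest among the mutants in replicate 2. The B and plasma cell markers, of which 0 of 7 were called, had their lowest and highest sums in the same uteri, 256 CPM in mutant replicate 2 and 2540 CPM in replicate 5, against 615 to 1620 CPM in controls; their part in these values was not tested. *Ltbr*, the lymphotoxin β receptor, *Fas*, the death receptor, and *Tnfrsf11a*, which encodes RANK, had log2 fold changes of 0.13, 0.04 and -0.23.

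**Figure D3:**
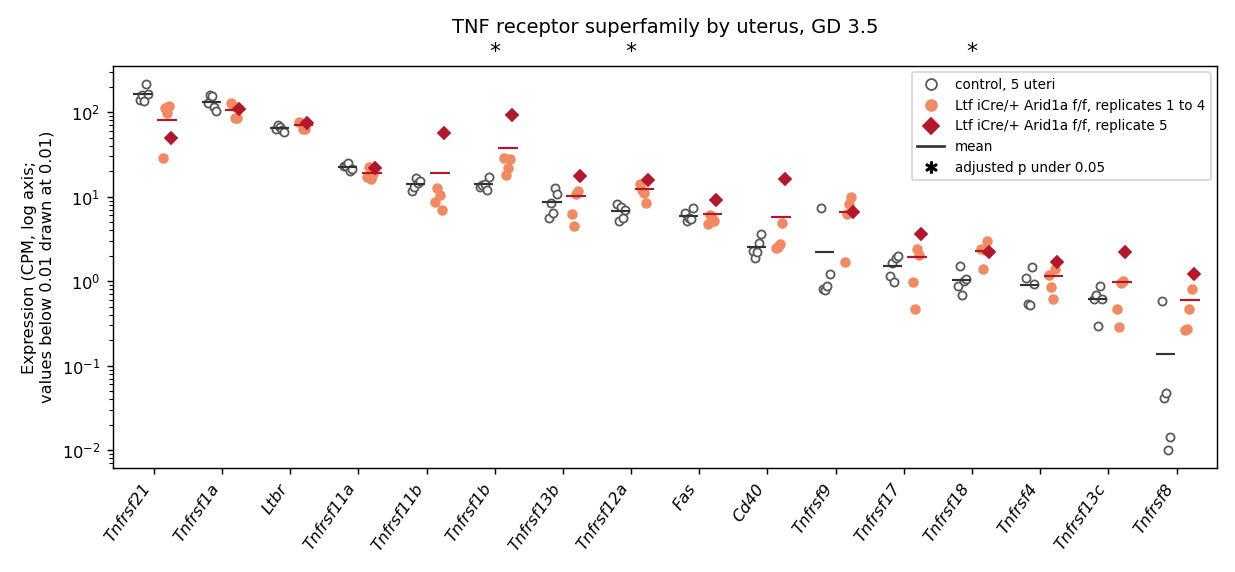
Expression of the 16 receptors in each uterus (CPM, log axis), ordered by the control mean, with the same symbols for controls, mutants 1 to 4, mutant 5 and means. *Tnfrsf21* is lower in all 5 mutants, *Tnfrsf1b* and *Tnfrsf12a* are higher in all 5, and 1 control lies among the mutants for *Tnfrsf9* (7.29 CPM) and *Tnfrsf8* (0.587 CPM).

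Ligands and their receptors were set side by side. *Tnf* rose together with *Tnfrsf1b* by the test, while *Tnfrsf1a* did not pass it. Both ligands of the lymphotoxin β receptor that rose, *Ltb* and *Tnfsf14*, had mutant means of 3.90 and 1.48 CPM per kb, and *Ltbr* itself stood at 27.4 CPM per kb in controls and 30.0 CPM per kb in mutants. In the TWEAK pair it was the receptor that passed the test and not the ligand. OX40 ligand passed the test and its receptor *Tnfrsf4* did not. GITR passed it, and its ligand *Tnfsf18* was at 0.0502 CPM in controls and 0.0668 CPM in mutants, which is near the level of 3 counts. For RANKL, Fas ligand, TRAIL and CD40 ligand neither the ligand nor the receptor passed the test.

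Of the 18 NF-κB components and feedback genes, *Tnfaip2* rose and *Rel* fell, which is 11.1% of the class and near the 9.70% of all tested genes. These genes were more abundant than the ligands: 16 of the 18 had a control mean of at least 10 CPM and none was under 1 CPM. Per kb the highest in controls were *Nfkbia* at 48.3 ± 3.23, *Rela* at 19.6 ± 2.01 and *Ier3* at 19.3 ± 3.18 CPM per kb (SD, n = 5 each), of which the last pair overlapped. The fitted changes were positive for 11 and negative for 7, and 3 of the 18 had a change of at least 1 on the log2 scale in either direction.

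*Rel* (ENSMUSG00000020275, chr11:23736847-23770970) encodes c-Rel, the subunit best known from lymphocytes and macrophages. Controls had 53.3, 43.8, 44.7, 45.8 and 42.6 CPM, and mutants 14.6, 24.3, 24.4, 22.8 and 31.9 CPM. All mutants lay below all controls, with replicate 1 the lowest and replicate 5 the highest of the mutants. The means were 46.0 ± 4.23 and 23.6 ± 6.15 CPM (SD, n = 5 each), which is 0.513-fold, or -0.96 on the log2 scale (SE 0.17, edgeR adjusted p = 0.00657, exact permutation p = 0.00794). In the 10 fits that left out 1 uterus, the value stayed between -1.10 and -0.84, the latter without mutant replicate 1, and the call was kept every time.

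The other Rel family genes did not pass the test. *Rela*, which encodes the main activating subunit, had 65.4, 66.7, 61.2, 54.7 and 53.0 CPM in controls and 69.7, 62.9, 58.5, 57.8 and 55.2 CPM in mutants (log2 fold change 0.01, SE 0.09, edgeR adjusted p = 0.943). *Nfkb1*, *Nfkb2* and *Relb* had log2 fold changes of -0.08, 0.12 and 0.05 (edgeR adjusted p of 0.662, 0.660 and 0.900), with standard errors of 0.09, 0.14 and 0.17. *Nfkb2* overlaps *Psd* on the opposite strand (48.7 CPM in controls and 46.2 CPM in mutants). If strands were not told apart in the counting, reads in the shared exons are left out of the *Nfkb2* count. Of the 5 subunit genes, *Rel* was thus the one that passed the test, and the differences between subunits were not tested.

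*Tnfaip2* (ENSMUSG00000021281, chr12:111442469-111455018) is a gene induced by TNF in endothelium and myeloid cells. It had 17.2, 16.7, 19.8, 16.7 and 10.7 CPM in controls and 61.7, 22.6, 23.9, 47.5 and 306 CPM in mutants. The groups did not overlap, but the mutants were spread over more than 10-fold. The log2 fold change was 2.51 (SE 0.67, edgeR adjusted p = 0.0376), and without mutant replicate 5 it was 1.26 (edgeR adjusted p = 0.0234). Without any single control the call was lost (edgeR adjusted p = 0.0721 to 0.0881).

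*Tnfaip3* (ENSMUSG00000019850, chr10:19000910-19015657) encodes a ubiquitin-editing enzyme that shuts off TNF receptor signalling. It had 9.68, 9.28, 7.91, 9.44 and 9.65 CPM in controls and 10.4, 9.75, 10.2, 12.3 and 61.5 CPM in mutants. Every mutant lay above every control, yet 4 of them by little (log2 fold change 1.18, SE 0.50, edgeR adjusted p = 0.160, and 0.21 with an adjusted p of 0.319 without mutant replicate 5). *Nfkbia* (ENSMUSG00000021025, chr12:55489410-55492647), the IκBα gene whose promoter is given above, had 83.1, 83.2, 74.5, 71.6 and 76.5 CPM in controls and 83.3, 79.6, 66.4, 88.9 and 164 CPM in mutants. Mutants 1 to 4 spanned the control range, and replicate 5 was above it (log2 fold change 0.31, SE 0.21, edgeR adjusted p = 0.381, and 0.03 without replicate 5).

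Several other genes of this class were also highest in replicate 5. *Nfkbiz*, which encodes IκBζ, a nuclear IκB protein, was at 26.0 to 31.8 CPM in controls and at 63.5, 28.7, 25.9, 46.2 and 136 CPM in mutants (log2 fold change 1.09, edgeR adjusted p = 0.0981, DESeq2 adjusted p = 0.0298, and 0.54 without replicate 5). *Nfkbie*, an IκB gene, *Birc3*, which encodes a cIAP protein, and *Bcl3*, a nuclear IκB gene, reached 17.2, 55.8 and 30.2 CPM in that uterus, each the highest of the 10. *Ier3*, an early response gene, had 18.1 to 26.5 CPM in controls, 11.3 to 17.2 CPM in mutants 1 to 4 and 47.2 CPM in replicate 5, so that its log2 fold change of -0.06 (edgeR adjusted p = 0.937) became -0.60 (edgeR adjusted p = 0.0416) without that uterus. The adaptor genes *Traf1*, *Traf2* and *Traf3* had log2 fold changes of -0.48, 0.13 and 0.37 (edgeR adjusted p of 0.282, 0.534 and 0.104), and *Tnip1* and *Sod2*, an inhibitor of NF-κB signalling and a mitochondrial superoxide dismutase, of -0.14 and -0.06. *Traf1* and *Sod2* were highest in control replicate 2, at 21.7 and 77.6 CPM.

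**Figure D4:**
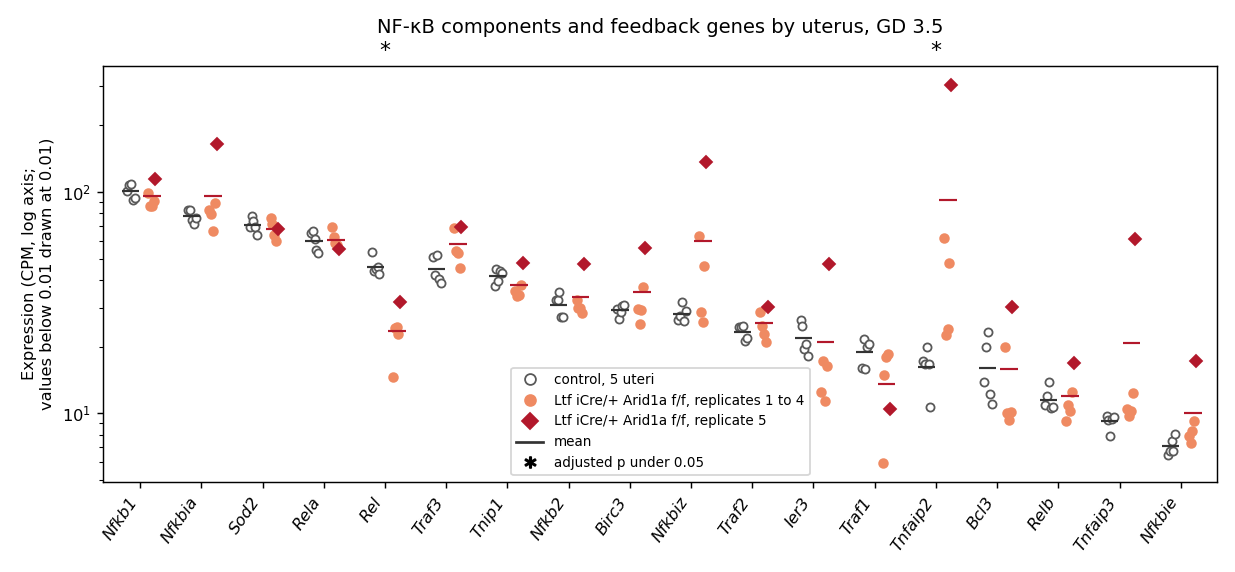
Expression of the 18 NF-κB components and feedback genes in each uterus (CPM, log axis), ordered by the control mean, with diamonds for mutant replicate 5. *Rel* is lower in all mutants, *Tnfaip2* is higher in all, and replicate 5 is the highest of the 10 uteri for 14 of the 18 genes.

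The mutants were also compared one by one. For 28 of the 49 members the highest of the 10 values was that of mutant replicate 5, namely 4 ligands, 10 receptors and 14 NF-κB genes, while this was so for 15.2% of all tested genes. The median log2 difference from the control mean over the ligands was 0.77, 0.31, 0.66, 1.23 and 1.17 in mutant replicates 1 to 5. Over the receptors it was -0.01, 0.03, 0.26, 0.47 and 1.21, and over the NF-κB genes 0.10, -0.01, -0.09, -0.04 and 0.63. The ligand median was above that of every control (-0.05 to 0.14) in each mutant, whereas the medians of the receptors and the NF-κB genes were highest in replicate 5.

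Cell type markers were summed in the same uteri. The 7 T cell markers, of which 4 were called higher (*Cd3e*, *Cd3d*, *Cd3g* and *Cd5*), summed to 14.9 to 23.8 CPM in controls and to 31.0, 24.5, 75.8, 66.2 and 50.7 CPM in mutants 1 to 5, and none was at 0 in every uterus. Without mutant replicate 5, 3 of the 7 were called. Mutant replicate 2 had the lowest T cell sum of the mutants, and also their lowest macrophage (316 CPM), neutrophil (12.3 CPM) and B and plasma cell sums (256 CPM). The general leukocyte, inflammatory monocyte and NK cell sums were lowest in mutant replicate 1 (173, 255 and 21.4 CPM), and the dendritic cell sum in mutant replicate 5 (26.1 CPM). Replicate 2 was also the lowest mutant for 7 of the 9 members that rose, against 28.7% of all genes that rose. The exceptions were *Tnfrsf12a*, lowest in mutant replicate 4, and *Tnfsf4*, whose highest value, 0.575 CPM, was that of mutant replicate 2. Of the general leukocyte markers 3 of 4 were higher, from 134 to 209 CPM in controls and from 173 to 347 CPM in mutants, but 0 of 4 were called without mutant replicate 5. Of the macrophage markers 0 of 9 were called, with sums of 203 to 381 and 316 to 743 CPM. Their fitted changes were positive for 7 and negative for 2, with a median of 0.54 on the log2 scale. Without mutant replicate 5, 1 was called lower, and the list median was 0.22. All 4 endothelial markers were lower (595 to 851 CPM in controls, 275 to 410 CPM in mutants), 2 of 7 stromal markers were lower, and of the 7 epithelial markers 4 were higher and 1 lower (3 and 1 without mutant replicate 5). Of the remaining lists, 1 of 5 markers of inflammatory monocytes was called higher (*Chil3*, edgeR adjusted p = 0.0409, and 0.0784 without mutant replicate 5). Without that uterus the median of this list was -0.14 on the log2 scale. Of the dendritic cell markers 1 of 5 was called lower, while the other 4 had positive fitted changes. The dendritic cell median was 0.52 (0.51 without mutant replicate 5). For NK cells 0 of 6 markers were called, and for the myometrium 0 of 5. Of the 7 neutrophil markers 2 were called higher, *Ly6g* and *Mmp8*, and all 7 had positive fitted changes. Without mutant replicate 5 only *Ly6g* was called (log2 fold change 2.50, edgeR adjusted p = 0.0457). The list median went from 4.24 to 0.12 on the log2 scale. *Mmp8* was above every control in 5 mutants and *Ly6g* in 4. The part of these cell types in the changes of the TNF and NF-κB genes was not tested.

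**Figure D5:**
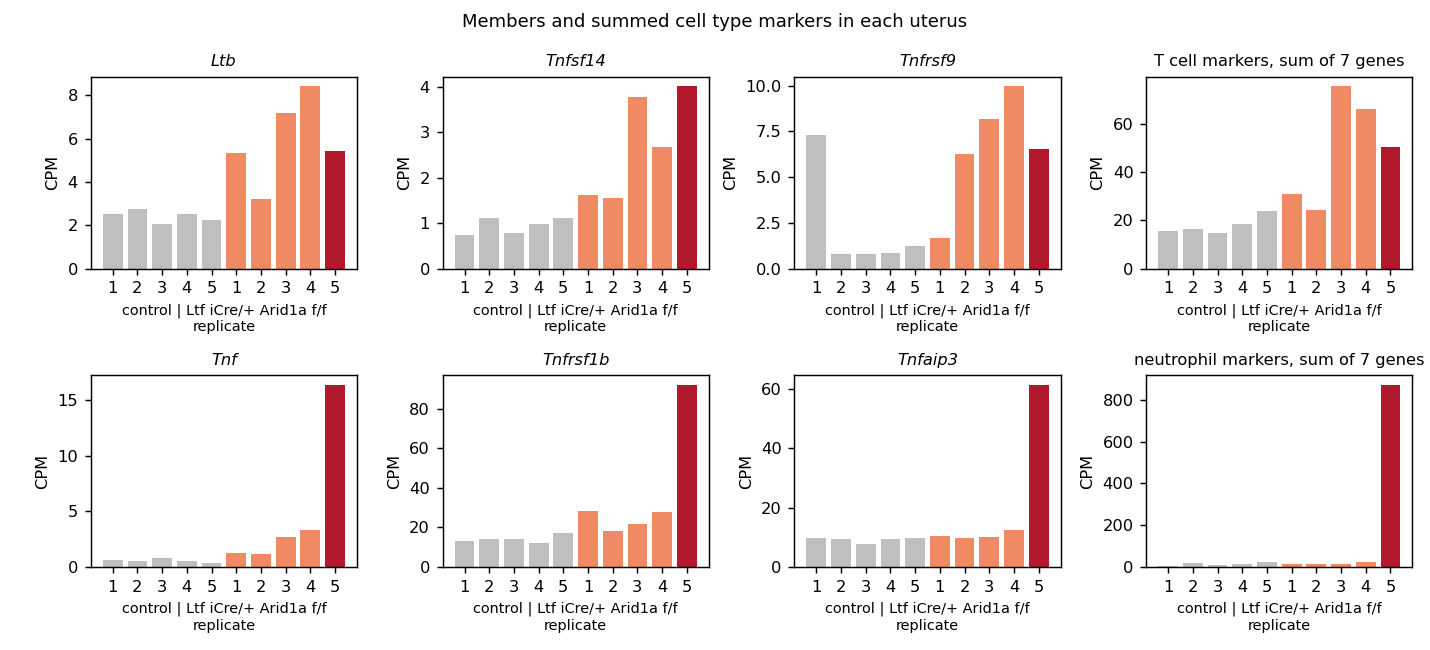
CPM of 6 members and summed CPM of the T cell and the neutrophil markers in each of the 10 uteri (bars, 1 per uterus, axes from 0). *Ltb*, *Tnfrsf9* and the T cell sum are each high in several mutants, and *Tnfrsf9* is also high in control replicate 1 (7.29 CPM), where the T cell sum is 15.5 CPM. *Tnf*, *Tnfrsf1b* and *Tnfaip3* are highest in mutant replicate 5, where the neutrophil sum is 873 CPM. The macrophage (743 CPM), inflammatory monocyte (860 CPM) and B and plasma cell sums (2540 CPM), not drawn, were also highest there, and those of NK and dendritic cells were not. No link of genes to cell types was tested.

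The signal transduction genes between the receptors and NF-κB, 26 genes of adaptors, kinases, ubiquitin ligases and further inhibitors, gave few calls. None rose and 1 fell (3.85% called, against 9.70% of all tested genes), with a median log2 fold change of 0.05. The gene that fell was *Ikbkg* (chrX:74393290-74453854), which encodes NEMO, the scaffold of the IκB kinase complex. It had 64.0, 64.9, 66.7, 68.8 and 71.6 CPM in controls and 51.2, 48.1, 56.8, 56.1 and 57.9 CPM in mutants, with no overlap (log2 fold change -0.32, SE 0.07, edgeR adjusted p = 0.0228). The call was lost without control replicate 3, 4 or 5 (edgeR adjusted p of up to 0.0591). Without mutant replicate 1 or 2, 3 genes of the list were called, 2 higher and 1 lower in each fit. The catalytic subunits *Chuk* and *Ikbkb* had log2 fold changes of 0.12 and 0.11. Among 15 further ligands and receptors, none rose and 1 fell (6.67% called, against 9.70% of all tested genes). This gene was *Edar* (chr10:58600789-58675654), which encodes the ectodysplasin receptor of skin appendages. Its controls had 1.15, 1.13, 1.18, 0.767 and 1.34 CPM and its mutants 0.204, 0.169, 0.458, 0.494 and 0.420 CPM (log2 fold change -1.66, SE 0.33, edgeR adjusted p = 0.0115), and the call was kept with each uterus left out.

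Of 28 genes commonly named as NF-κB targets, 6 rose and none fell (21.4%, against 9.70% of all tested genes), with a median log2 fold change of 0.74, which was 0.06 without mutant replicate 5 (4 higher and 1 lower). This list too was chosen with earlier results of these data known, so its share beside the background is a description and no test. That uterus held the highest value for 21 of the 28. *Ptgs2*, which encodes cyclooxygenase-2, had 3.85, 1.73, 2.82, 5.2 and 2.86 CPM in controls and 3.25, 16.0, 14.7, 16.3 and 26.6 CPM in mutants (log2 fold change 2.22, SE 0.46, edgeR adjusted p = 0.0136). Only mutant replicate 1 lay in the control range. *Lcn2*, an iron-binding protein of epithelium and neutrophils, had 0.838 to 1.71 CPM in controls and 635, 4.61, 2.35, 32.8 and 1660 CPM in mutants (log2 fold change 8.60, SE 1.79, edgeR adjusted p = 0.0139), and without mutant replicate 5 its log2 fold change was 7.13.

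The other targets that rose were *Saa3*, an acute phase protein, *Il1a*, the cytokine IL-1α, *Csf3*, a growth factor of granulocytes, and *Cxcl5*, a chemokine for neutrophils. Their log2 fold changes were 4.90, 6.43, 1.51 and 7.54 (edgeR adjusted p of 0.0222, 0.0307, 0.0364 and 0.0459). Without mutant replicate 5 they were 2.47, 3.07, 1.21 and 2.03 (edgeR adjusted p of 0.00857, 0.0377, 0.0629 and 0.170), so that *Csf3* and *Cxcl5* lost their calls. Without any single control 2 or 3 of the 28 were called (7.14% to 10.7%, against 4.79% to 7.65% of all tested genes). The endothelial adhesion genes *Icam1*, *Vcam1* and *Sele*, also induced by TNF, had log2 fold changes of -0.03, -0.08 and -1.17 (edgeR adjusted p of 0.952, 0.913 and 0.203).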

How the data were processed

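Uterine mRNA of 5 control and 5 *Ltf* iCre/+ *Arid1a* f/f mice was sequenced as paired end reads. The authors trimmed the reads (cutadapt 1.18, Trim Galore 0.6.4), aligned them to GRCm38 with STAR 2.7.3a and deposited whole-number counts per gene from its GeneCounts mode, without normalization. A read that overlaps 2 genes on the strand counted is left out by that mode, and the annotation release and strand setting are not given in the sources used here. No 2 libraries of a genotype agreed within sampling noise. Uteri are from separate animals.

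A GENCODE annotation of the same build gave symbols, positions and exon lengths for 45143 of the 45706 identifiers. Genes averaging 1 count or more per uterus entered edgeR 4.0.16 in R 4.3.3 (quasi-likelihood test after TMM normalization, Benjamini-Hochberg over all 25146 tested genes, threshold 0.05). The permutation test used log2 CPM with a prior count of 2. The alternatives were DESeq2 1.42.0, its size factors in edgeR, 2 other count filters, a block for the replicate number and leaving out each uterus. Drawings were made with matplotlib 3.10.9.

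The 49 members, the pathway lists and the marker lists were chosen with earlier results of these data known. Values in every uterus are given for members that were called or did not overlap and for the 2 most abundant per length in each class, and for at most 6 called genes of a pathway list, others by ranges and counts.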

Additional observations from a re-analysis of the deposited data

Results flagged for a closer look

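In a group of 5 uteri, a value was marked when its gap to the nearest other value exceeded 0.71 of the range of the group on the log2 CPM scale, which chance gives for about 5% of groups. Of 98 groups (49 genes in each genotype), 8 values were marked, and 4 of them were the highest value of mutant replicate 5: *Tnfrsf1b* at 92.3 CPM, *Nfkb2* at 47.1 CPM, *Nfkbie* at 17.2 CPM and *Tnfaip3* at 61.5 CPM. *Tnfrsf9* was marked in both genotypes, as the highest control (replicate 1, 7.29 CPM) and as the lowest mutant (replicate 1, 1.69 CPM). Low controls were marked for *Tnfaip2* (replicate 5, 10.7 CPM) and for *Tnfaip3* (replicate 3, 7.91 CPM).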

How the results depend on the processing

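Over 731 values of single genes under the alternatives, 664 kept their direction and their side of the threshold, 35 lost a call, 11 gained one and 21 changed sign. With 1 uterus left out, the number of members called lay between 4 and 11 (main value 10), of ligands between 2 and 6, of receptors between 1 and 4, of NF-κB components and feedback genes between 1 and 3, of signal transduction genes between 0 and 3, of further ligands and receptors between 1 and 2 and of NF-κB targets between 2 and 9. Over all tested genes, 2438 were called, and 1204 without control replicate 2. DESeq2 called 15 members and 8 ligands (7 higher, 1 lower), 2 signal transduction genes and 2 further ligands and receptors, while it called 4103 of all genes. Its adjusted p was not given for *Tnfaip3* and *Tnfrsf11b*.

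No pairing of uteri by replicate number is stated, though the paper's authors compared littermates where they could. Deviations of same-numbered uteri correlated at -0.0529 to 0.128, and 2 of 5 uteri correlated best with their own number. These correlations cannot exclude a pairing, for example by litter. With the replicate block, 5 members (3 higher, 2 lower), 2 ligands and 1 NF-κB gene were called, against 1704 (6.78%) of all genes, and the log2 fold change of *Tnfrsf11b* was -0.11. Changes of sign with 1 uterus left out were seen only for genes that were not called: *Tnfrsf11b* (-0.55 to 0.63), *Tnfrsf13b* (-0.07 to 0.41), *Tnfrsf17* (-0.05 to 0.57), *Fas* (-0.14 to 0.12), *Nfkb2* (-0.03 to 0.17), *Rela* (-0.04 to 0.05), *Relb* (-0.11 to 0.12), *Bcl3* (-0.38 to 0.15) and *Ier3* (-0.60 to 0.09). With DESeq2 size factors all 10 calls of members were kept, and with no filter on low counts 9 were, since *Tnfsf13* had an adjusted p of 0.0508. filterByExpr removed *Tnfsf4* and *Cd40lg*. Depth limits *Tnfsf4* above all, with 8 counts over 5 controls. The causes of these changes were not tested.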
